A study of Homo sapiens with 12 samples.

Results

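The genes for the proteins of the cytosolic ribosome were followed through treatment of MYLA cells, an established line of cutaneous T cell lymphoma. Members were picked by a rule on gene names. It took every RPL or RPS symbol with a number, then optionally A, X or L and further digits. RPLP0, RPLP1, RPLP2 and RPSA were added. This gave 83 of the 59050 genes of the count table, 51 of the large and 32 of the small ribosomal subunit. All cultures contained interleukin-2 (20 ng/mL), and the groups received DMSO alone, romidepsin at 3.2 nM, afatinib dimaleate at 5.7 uM, or both drugs at these doses, for 24 h, with the DMSO volume matched in all groups. Romidepsin inhibits histone deacetylases and afatinib inhibits ErbB family kinases. Each of the 4 groups has 3 libraries of total RNA from this 1 line. The labels do not say whether these came from separate cultures, so p-values measure the spread between these libraries, which may be technical.

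A ribosome pairs a small subunit, which holds the mRNA and its decoding centre, with a large subunit, which joins amino acids and releases the new chain through an exit tunnel. The proteins are made in matched amounts, and many of their genes share a transcription start within a run of pyrimidines. An mRNA that begins there is called a terminal oligopyrimidine (TOP) mRNA, and its translation is controlled by the kinase mTOR through the RNA-binding protein LARP1. Several ribosomal proteins have a second gene, a paralogue, that is used mainly in muscle or testis or whose product has a different task. A change in mRNA level does not give the rate at which the protein is made.

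The start sites of 9 members on which the results turn are printed to show this shared feature and its exceptions. Each stretch has 30 bases from the RefSeq annotation of GRCh38.p14, in the direction of transcription: 10 bases before the start and 20 from the start on. Capitals mark the unbroken run of C and T that covers the start, where it has at least 6 bases. The first 4 belong to genes that were lower after the combination than after DMSO, and the next 3 to genes that were higher or stayed near the DMSO level. RPS26 and RPL7L1, which come last, have no run that covers the start in this annotation, though RPS26 has one just after it.
RPL21, chr13:27251548-27251577, plus strand: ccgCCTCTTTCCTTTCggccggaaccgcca
RPL36A, chrX:101391001-101391030, plus strand: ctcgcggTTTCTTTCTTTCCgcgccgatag
RPL26, chr17:8383174-8383203, minus strand: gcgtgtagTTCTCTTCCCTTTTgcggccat
RPS7, chr2:3575250-3575279, plus strand: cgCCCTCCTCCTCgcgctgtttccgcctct
RPS23, chr5:82278335-82278364, minus strand: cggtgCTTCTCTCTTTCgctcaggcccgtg
RPL28, chr19:55385922-55385951, plus strand: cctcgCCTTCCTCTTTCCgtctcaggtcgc
RPS6, chr9:19380217-19380246, minus strand: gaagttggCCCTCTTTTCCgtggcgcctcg
RPS26, chr12:56041908-56041937, plus strand: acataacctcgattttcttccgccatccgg
RPL7L1, chr6:42879606-42879635, plus strand: gtgcggcgccgtagctaggagcggacgcca

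Promoters of 66 members could be matched to this annotation, among 27305 promoters that reach from 250 bases before to 50 after the start. A pyrimidine run of at least 6 bases covered the start in 44 of the 66, or 66.7%, against 7.5% of all promoters. The letters CCGGAAG, read on both strands, occurred in 34.8% of the member promoters and 10.7% of all. ATGGCG, also on both strands, occurred in 36.4% and 11%. TATAAA was found at similar shares, 10.6% and 12%, and GGGCGG at 54.5% and 44.6%. A match describes the letters only and is no evidence of binding.

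The libraries held 8972228 to 12696653 counts assigned to genes, so that 3 counts equalled 0.236 to 0.334 CPM, the counts of a gene scaled to the total of its library and, in the values below, by the normalization factors of the fit. Of 15 T cell markers, IL2RA, CD2, CD3D, CD3G and CD247 were detected in every library, whereas CD3E, CD4, CD7 and LCK had at most 4 counts in any library. The summed T cell markers were 1560 to 1650 CPM after DMSO, 549 to 570 after romidepsin, 1090 to 1120 after afatinib and 321 to 332 after the combination. Most of this sum was IL2RA, with a mean of 682 CPM over the 12 libraries. Of 8 tested T cell markers 7 were lower after romidepsin, 5 after afatinib and 7 after the combination, and 1 was higher after afatinib. Of all tested genes 31.5%, 23.3% and 37.1% were lower in that order, and 22.0% were higher after afatinib. Of 10 keratinocyte markers the sum was 201 to 257 CPM after DMSO, 139 to 148 after romidepsin, 193 to 225 after afatinib and 128 to 148 after the combination, most of it SFN and KRT10, while KRT1 and KRT6B had no count. Summed fibroblast markers, mostly COL1A1 and COL3A1 with DCN and LUM at 0, were 173 to 199, 26 to 32.5, 97.5 to 101 and 14.7 to 17.2 CPM in the same order. Summed B cell markers were 1.89 to 7.30 CPM, mostly CD79A with 17 to 56 counts, with MS4A1 at 0. Myeloid markers summed to 21.2 to 43.6 CPM, mostly CSF1R (52 to 441 counts) and ITGAM (45 to 361). LYZ and FCGR3A had 2 counts or fewer. The log2 fold changes of the tested myeloid markers ranged from -1.58 to 2.22 after romidepsin and from -2.43 to 3.48 after the combination. KRT5, a keratin of basal keratinocytes, had 43 to 126 counts in 4 libraries (DMSO 1 and 2, afatinib 3 and combination 1) and at most 1 count in the other 8. Counts below are therefore also given without those 4 libraries, which leaves DMSO 3 as the only control. Its spread is then taken to be like that of the other groups. Where the share over all genes of that smaller fit is printed, it was lower as well. Its counts are thus not directly comparable with those of all 12 libraries. Where that share is not printed, a count from it is not set against all genes. The part of the keratin reads and of the marker differences in any result was not tested. DMSO 3 also had the largest share of mitochondrially encoded counts, 14.8%, where the other 11 libraries had 10.7% to 13.9%.

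Levels differed widely among the members. Of the 83 genes, 81 had enough counts to be tested, 50 of the large and 31 of the small subunit. RPL10L, a retrogene paralogue of RPL10, was too low, with at most 0.153 CPM in any library. On the TPM scale, which also divides by the length given in the count table, the highest members over the 12 libraries were RPL8 with 4100, RPS2 with 4070 and RPL7 with 1750. The lowest tested were RPS27L with 2.94, RPS10 with 4.19 and RPL3L with 8.21. Another gene shares 40.3% of the RPS10 exon bases, so reads of RPS10 could have been left out. Since the proteins stand in the ribosome in nearly equal numbers, these TPM values are not a measure of protein. Reads that fit several places or several genes were left out of the counts, and 1149 rows of the table are named as ribosomal protein pseudogenes, so that members with near-identical copies are uncertain in level.

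All 83 members together took 3.10% ± 0.235 (SD, n = 3) of counts after DMSO, 3.13% ± 0.125 after romidepsin, 2.94% ± 0.0862 after afatinib and 2.95% ± 0.206 after the combination. The ranges overlapped: 2.87% to 3.34% after DMSO, 3.04% to 3.27% after romidepsin, 2.85% to 3.02% after afatinib and 2.71% to 3.09% after the combination. As a summed share, then, the ribosomal protein mRNAs moved by less than the spread of the DMSO libraries. In bulk RNA, fewer cells with an mRNA and less of it per cell cannot be told apart.

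The balance between the subunits did separate the groups with romidepsin from DMSO. Large-subunit genes took 1.93%, 2.06% and 1.80% of counts in the 3 DMSO libraries, and small-subunit genes 1.14%, 1.27% and 1.07%. The log2 ratio of large to small was 0.757, 0.696 and 0.745 in these libraries. After romidepsin it was 0.595, 0.601 and 0.587, below every DMSO library, and after the combination 0.661, 0.675 and 0.651, also below every DMSO library. After afatinib it was 0.747, 0.804 and 0.765, which overlapped DMSO. The mean ratio was 0.73 ± 0.0323 after DMSO, 0.59 ± 0.00702 after romidepsin, 0.77 ± 0.0291 after afatinib and 0.66 ± 0.0121 after the combination. The order of romidepsin below DMSO held with TPM values, 0.21 against 0.37, and among tested members that share no exon bases with another gene, 0.91 against 1.00. DMSO 3, the control without keratin reads, had 0.745, above all 6 libraries with romidepsin. The ratio carries no test, because it sums over genes of very unequal abundance and each group has 3 libraries. RPS2, the most abundant small-subunit mRNA here, weighs heavily in it. Its log2 fold change was 0.29 after romidepsin and -0.12 after the combination. The ratio was not computed without RPS2, so the part of this gene in the romidepsin difference was not tested.

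**Figure D1:**
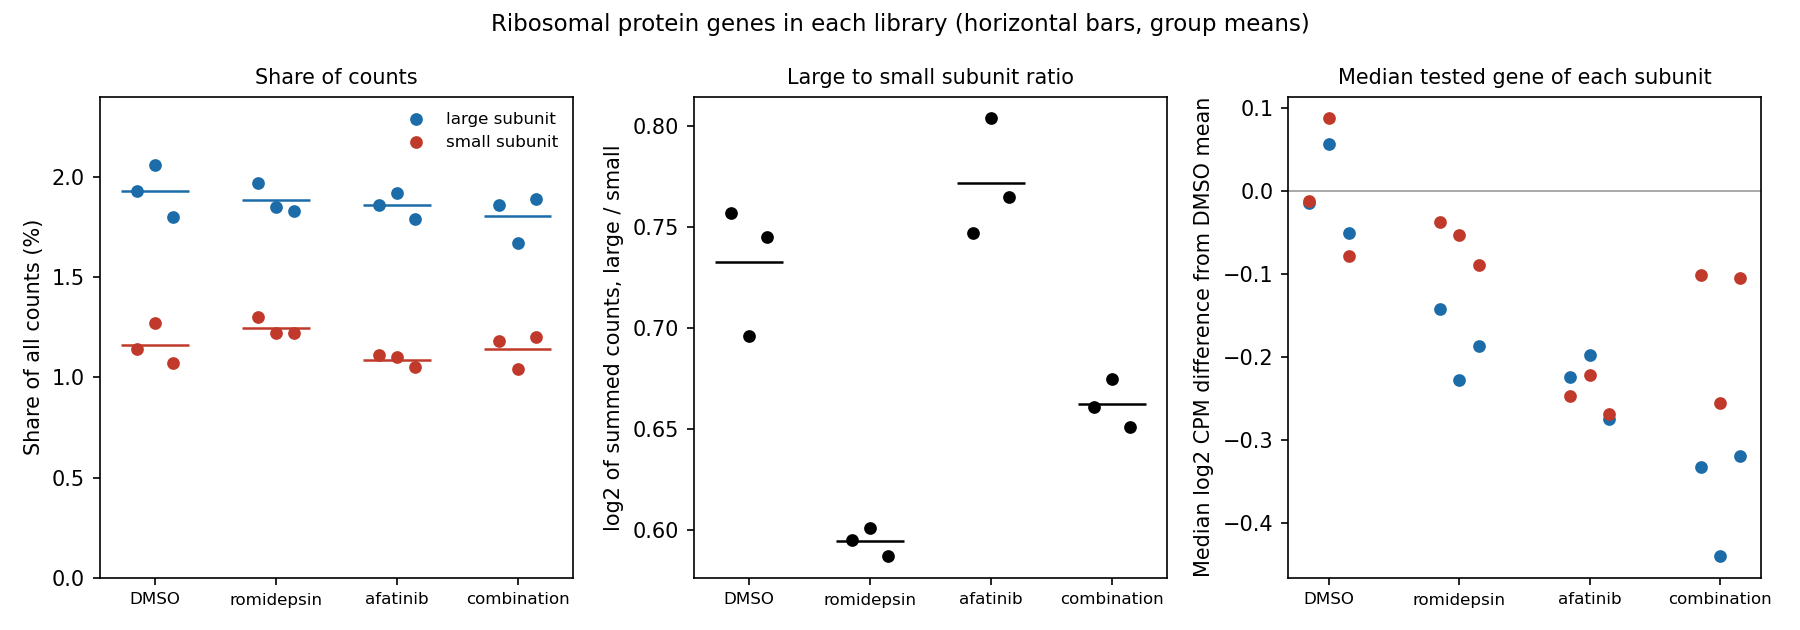
Each point is 1 library. Left, share of all counts (%) in large and small subunit genes, with group means as bars; middle, log2 ratio of the 2 sums; right, median over the tested genes of each subunit of the log2 CPM difference from the DMSO mean. The 3 romidepsin ratios, 0.587 to 0.601, lie below the 3 DMSO ratios, 0.696 to 0.757, and the right panel shows the afatinib and combination medians below 0 for both subunits.

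Gene by gene, lower levels were more frequent than higher ones after each treatment, and most differences were small. Fold changes come from 1 edgeR quasi-likelihood fit of all 12 libraries, with p-values adjusted over 16208 tested genes and a threshold of 0.05. The 3 comparisons with DMSO share the control libraries. After romidepsin 11 members were higher and 37 lower, with 33 not called, and the median log2 fold change was -0.15. Of all tested genes 31.1% were higher and 31.5% lower, 62.6% in all, with a median of -0.003. The members were thus called about as often as all genes, 59.3%, but in the downward direction more often, 45.7%. All 3 romidepsin libraries lay below all 3 DMSO libraries for 39 members, where 32.6% of tested genes did so, and above them for 9, where 32.1% did. Large-subunit genes made up most of this: 27 of 50 were lower and 6 higher, median -0.20, against 10 lower and 5 higher of 31 small-subunit genes, median -0.08. The difference between the subunits was not tested. Without the 4 libraries with keratin reads, 17 members were higher and 20 lower, with a median of -0.02, and 19 of the 37 lower calls remained. In that fit 16 of the 20 lower members were of the large subunit, and the small subunit had 9 higher and 4 lower.

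Afatinib gave the most one-sided pattern. Here 54 members were lower and 1 higher, with a median of -0.26, where 23.3% of all tested genes were lower and 22.0% higher, 45.4% in all, and their median was 0.002. Both subunits took part, with 32 of 50 large-subunit genes lower, median -0.23, and 22 of 31 small-subunit genes, median -0.26. For 56 members all 3 afatinib libraries were below all 3 DMSO libraries, which 26.8% of tested genes showed, and for 3 they were above, as for 25.9%. Without the libraries with keratin reads 21 members were lower and 3 higher, the median was -0.12, and all 21 were among the 54; of all genes then tested, 11.3% were lower. Dividing by library size alone, which moves the median of all genes by 0.10, gave 36 lower and 4 higher members.

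With both drugs 49 members were lower and 8 higher than after DMSO, with a median of -0.26, where 37.1% of tested genes were lower and 37.2% higher, 74.3% in all. All 3 combination libraries were below all DMSO libraries for 47 members and above for 5, where 37.1% and 37.6% of tested genes were. The large subunit again had the lower median, with 33 of 50 genes lower and a median of -0.38, against 16 of 31 and -0.15 for the small subunit. Upper quartile scaling, which moves the median of all genes to 0.12, gave 38 lower and 14 higher. Without the libraries with keratin reads 35 members were lower and 10 higher, and all 35 and 8 of the 10 were called in the fit of all libraries as well.

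Set against each single drug, the combination was lower than romidepsin for 38 members and higher for 7 (of all tested genes, 29.2% lower and 25.1% higher, 54.3% in all), with a median of -0.14. The libraries did not overlap for 38 members below and 5 above, with 31.5% and 27.6% over all tested genes. This split depended on scaling: with library size alone it was 21 lower and 14 higher, and with upper quartile scaling 20 and 14. Without the libraries with keratin reads 34 were lower and 6 higher, and all of these were also called with all libraries. Against afatinib 21 members were higher and 26 lower (33.4% and 35.8% of tested genes, 69.2% in all), with a median of -0.01. The libraries did not overlap for 17 members above and 25 below, with 35.1% and 37.2% over all tested genes. Upper quartile scaling turned that split to 32 higher and 16 lower. Without the libraries with keratin reads 15 were higher and 24 lower, of which 14 and 23 were called with all libraries. For the combination against afatinib, the prevailing direction among the members thus depended on the scaling.

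**Figure D2:**
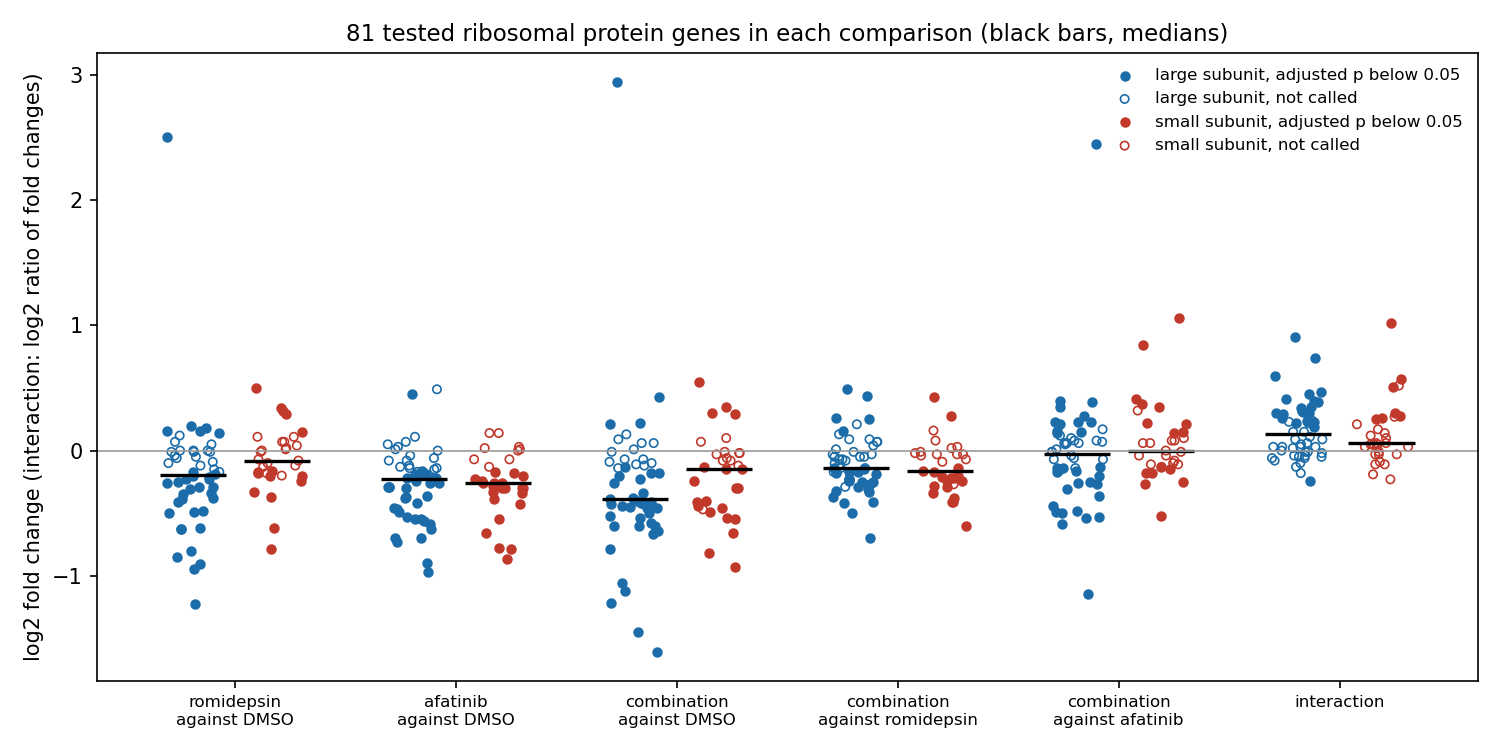
Each point is 1 tested gene, filled where the edgeR adjusted p is below 0.05, with log2 fold change on the vertical axis and the 6 comparisons on the horizontal axis; black bars are medians by subunit. Most afatinib points lie below 0 in both subunits, and the isolated point near the top in romidepsin, combination against DMSO and combination against afatinib is RPL3L.

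The proteins at the tunnel exit and its rim are the part of the large subunit where nascent chains emerge. Of 8 such genes 7 were lower after romidepsin, 5 after afatinib and 6 after the combination, with medians of -0.27, -0.20 and -0.41. The shares lower were 87.5%, 62.5% and 75%, against 54%, 64% and 66% of all large-subunit genes and 31.5%, 23.3% and 37.1% of all tested genes, so that after afatinib the tunnel genes were near the rest of their subunit. RPL23A, which docks the signal recognition particle, had 89.0, 89.5 and 91.1 CPM after DMSO, 49.1, 49.5 and 50.7 after romidepsin, 61.7, 58.8 and 59.1 after afatinib, and 42.4, 41.2 and 40.2 after both. No library of a treated group reached a DMSO library, and the combination was below either drug. The log2 fold change of RPL23A was -0.85 ± 0.07 (SE) after romidepsin (adjusted p = 7.73e-15), -0.59 ± 0.07 after afatinib (1.13e-09) and -1.12 ± 0.07 after the combination (2.49e-19). RPL26, which lines the tunnel and is known to bind p53 mRNA, was lowest after afatinib, with 54.5, 54.6 and 58.1 CPM against 110, 95.1 and 107 after DMSO, a log2 fold change of -0.90 ± 0.07 (adjusted p = 7.28e-15). RPL17 had 30.9 to 35.1 CPM after DMSO and 17.5 to 25.6 in the 9 treated libraries. Other genes share 35.3% of the RPL17 exon bases, among them a read-through transcript, so its counts are partly undecided. RPL4 and RPL35, 2 more of these tunnel proteins, were lower in all 3 comparisons with DMSO.

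RPL21 and RPL36A had the deepest falls after romidepsin and after the combination among large-subunit proteins found in every ribosome, whereas after afatinib RPL26 was below RPL36A. RPL21 (chr13:27251309-27256691) had 72.6, 74.5 and 78.2 CPM after DMSO, 38.7, 40.1 and 37.8 after romidepsin, 37.5, 41.4 and 36.4 after afatinib and 27.8, 26.4 and 28.3 after the combination. The single drugs gave nearly the same level and the combination a lower one, in every library. Its log2 fold changes were -0.95 ± 0.08, -0.97 ± 0.08 and -1.45 ± 0.08, with adjusted p of 7.35e-15, 1.79e-14 and 1.97e-21. RPL36A, which sits at the exit site for transfer RNA, had 24.5 to 33.9 CPM after DMSO, 10.1 to 15 after romidepsin, 15.1 to 17.9 after afatinib and 10.5 to 13.4 after both. Its log2 fold change was -1.23 ± 0.14 after romidepsin and -1.22 ± 0.14 after the combination, which left no difference between these groups beyond the error (0.01 ± 0.15, adjusted p = 0.955). The table has 66 rows named as RPL21 pseudogenes, 91 for RPL23A and 19 for RPL36A, so reads of these genes could have been left out as multiply mapped.

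RPL5 and RPL11 carry the 5S ribosomal RNA into the large subunit and, outside the ribosome, bind the p53 ligase MDM2. Both were lower after afatinib, RPL5 at -0.47 ± 0.07 (adjusted p = 5.60e-08) and RPL11 at -0.42 ± 0.07 (3.87e-06), and less so after the combination, at -0.23 ± 0.06 and -0.26 ± 0.07. After romidepsin RPL5 stood at 109 to 118 CPM, the same range as after DMSO, and RPL11 at -0.15 ± 0.07 was not called (adjusted p = 0.0595). The combination call of RPL5 was lost without the libraries with keratin reads (-0.15) and with library size or upper quartile scaling (-0.13 and -0.11); that of RPL11 was lost under these 2 scalings (-0.15 and -0.13).

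The proteins of the stalk, which recruits elongation factors, had small differences. RPLP0, its base, had 1910 to 2180 CPM after DMSO and 2170 to 2450 after romidepsin, a log2 fold change of 0.16 ± 0.06 (adjusted p = 0.0144) that was lost when DMSO 3 (0.11) or romidepsin 1 (0.11) was left out or no filter was used (0.13). RPLP1 was higher after the combination, at 0.22 ± 0.06 (adjusted p = 0.00253), a call lost without DMSO 3 (0.14). RPLP2 was lower after afatinib, at -0.19 ± 0.07 (adjusted p = 0.0234); 8 of its 23 alternatives lost that call, among them library size alone (-0.09) and the fit without DMSO 2 (-0.11). RPL12, at the foot of the stalk, had 130, 147 and 131 CPM after DMSO and 96.9, 92.5 and 99.1 after romidepsin, a log2 fold change of -0.50 ± 0.07 (adjusted p = 4.40e-09). It was also lower after afatinib, -0.22 ± 0.06, and after the combination, -0.43 ± 0.06.

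In the small subunit, RPS26 moved in opposite directions with the 2 drugs. RPS26 lies where mRNA leaves the subunit and contacts the bases before the start codon. Its gene (chr12:56041351-56044697, plus strand) shares no exon bases with another gene, and 30 rows are named as its pseudogenes. It had 128, 147 and 124 CPM after DMSO, 197, 183 and 183 after romidepsin, 79.3, 82.7 and 71.5 after afatinib, and 170, 150 and 168 after the combination. All romidepsin libraries were above and all afatinib libraries below every DMSO library, and the combination was above DMSO as well. The log2 fold changes were 0.50 ± 0.07 (adjusted p = 7.57e-09), -0.78 ± 0.07 (3.81e-13) and 0.29 ± 0.07 (0.000141). The combination exceeded afatinib by 1.06 ± 0.07 on the log2 scale (adjusted p = 6.24e-19). Of the 6 genes of the mRNA exit and platform region 2 were higher and 2 lower after romidepsin. These are 33.3% each, near the 31.1% and 31.5% of all tested genes. After afatinib 5 were lower, 83.3% against 71.0% of small-subunit genes and 23.3% of all tested genes. After the combination 2 were higher and 4 lower, 33.3% and 66.7%, against 37.2% and 37.1% of all tested genes. RPS13, on the platform, was lower in all 3 comparisons with DMSO, with 113 to 123 CPM after DMSO and 73.4 to 91.5 in the 9 treated libraries.

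RPS15A, a protein of the small-subunit body, was lower with afatinib alone but not with the combination. Its gene lies at chr16:18781295-18790383 on the minus strand. It had 29.7, 33.4 and 42.2 CPM after DMSO, 30.1, 30.1 and 32.6 after romidepsin, 18.5, 19.7 and 19.5 after afatinib, and 36.0, 35.9 and 31.8 after the combination. The 3 afatinib libraries were the lowest of all 12, and the other groups overlapped. The log2 fold change was -0.87 ± 0.11 after afatinib (adjusted p = 3.16e-09), -0.18 ± 0.10 after romidepsin (0.122) and -0.02 ± 0.10 after the combination (0.836). The combination exceeded afatinib by 0.84 ± 0.11 (1.31e-09).

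RPS2, RPS3 and RPS23 border the mRNA entry channel and the decoding centre. RPS2, the most abundant small-subunit mRNA here, was higher after romidepsin, with 4110 to 4540 CPM against 3200 to 3950 after DMSO, a log2 fold change of 0.29 ± 0.06 (adjusted p = 0.000127). Other genes share 25.9% of the RPS2 exon bases. RPS3, which also repairs DNA, was lower after afatinib at -0.23 and after the combination at -0.15, and RPSA, a laminin receptor when outside the ribosome, at -0.17 and -0.30. Without the libraries with keratin reads none of these 4 calls was made, and the afatinib value of RPSA was 0.00. RPS23, which reaches into the decoding centre, had 158, 159 and 147 CPM after DMSO, 163 to 173 after romidepsin, 166 to 176 after afatinib and 235, 228 and 213 after the combination. The combination libraries were the highest of all 12. Its log2 fold change was 0.55 ± 0.06 (adjusted p = 9.34e-12), and neither single drug was called (0.11 ± 0.06 and 0.14 ± 0.06, adjusted p = 0.088 and 0.0534), though afatinib was in 8 of 23 alternatives. RPL28 in the large subunit and RPS27, a zinc finger protein of the small subunit, were also higher after the combination, at 0.43 ± 0.06 (5.02e-09) and 0.35 ± 0.06 (7.77e-07).

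RPS12, on the beak of the small-subunit head, was higher after romidepsin, at 0.32 ± 0.08 (adjusted p = 0.000464), and lower after afatinib, at -0.30 ± 0.08 (0.0019). The afatinib call of RPS12 was lost without the libraries with keratin reads (-0.09). RPS7, linked like RPL5 and RPL11 to MDM2, was lower with each treatment and furthest with both: 311 to 393 CPM after DMSO, 270 to 283 after romidepsin, 204 to 231 after afatinib and 167 to 201 after the combination. Its log2 fold change after the combination was -0.93 ± 0.07 (adjusted p = 2.67e-16), and the combination was below romidepsin by -0.60 ± 0.07 (4.85e-10). The romidepsin call of RPS7, -0.33 ± 0.07, was lost without the libraries with keratin reads (-0.12). RPS27A, made as a fusion with ubiquitin, was lower after romidepsin at -0.79 ± 0.10 (1.16e-09) and after the combination at -0.82 ± 0.10 (1.66e-10), and its afatinib value of -0.30 ± 0.09 was not called in 3 alternatives. RPS6, the substrate of the S6 kinases, had 524 to 567 CPM across the 12 libraries. Its 3 log2 fold changes against DMSO were 0.02 ± 0.05, 0.00 ± 0.05 and -0.01 ± 0.05, with adjusted p of 0.743, 0.997 and 0.83; under upper quartile scaling the combination value was 0.11 and was called higher (adjusted p = 0.0484).

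**Figure D3:**
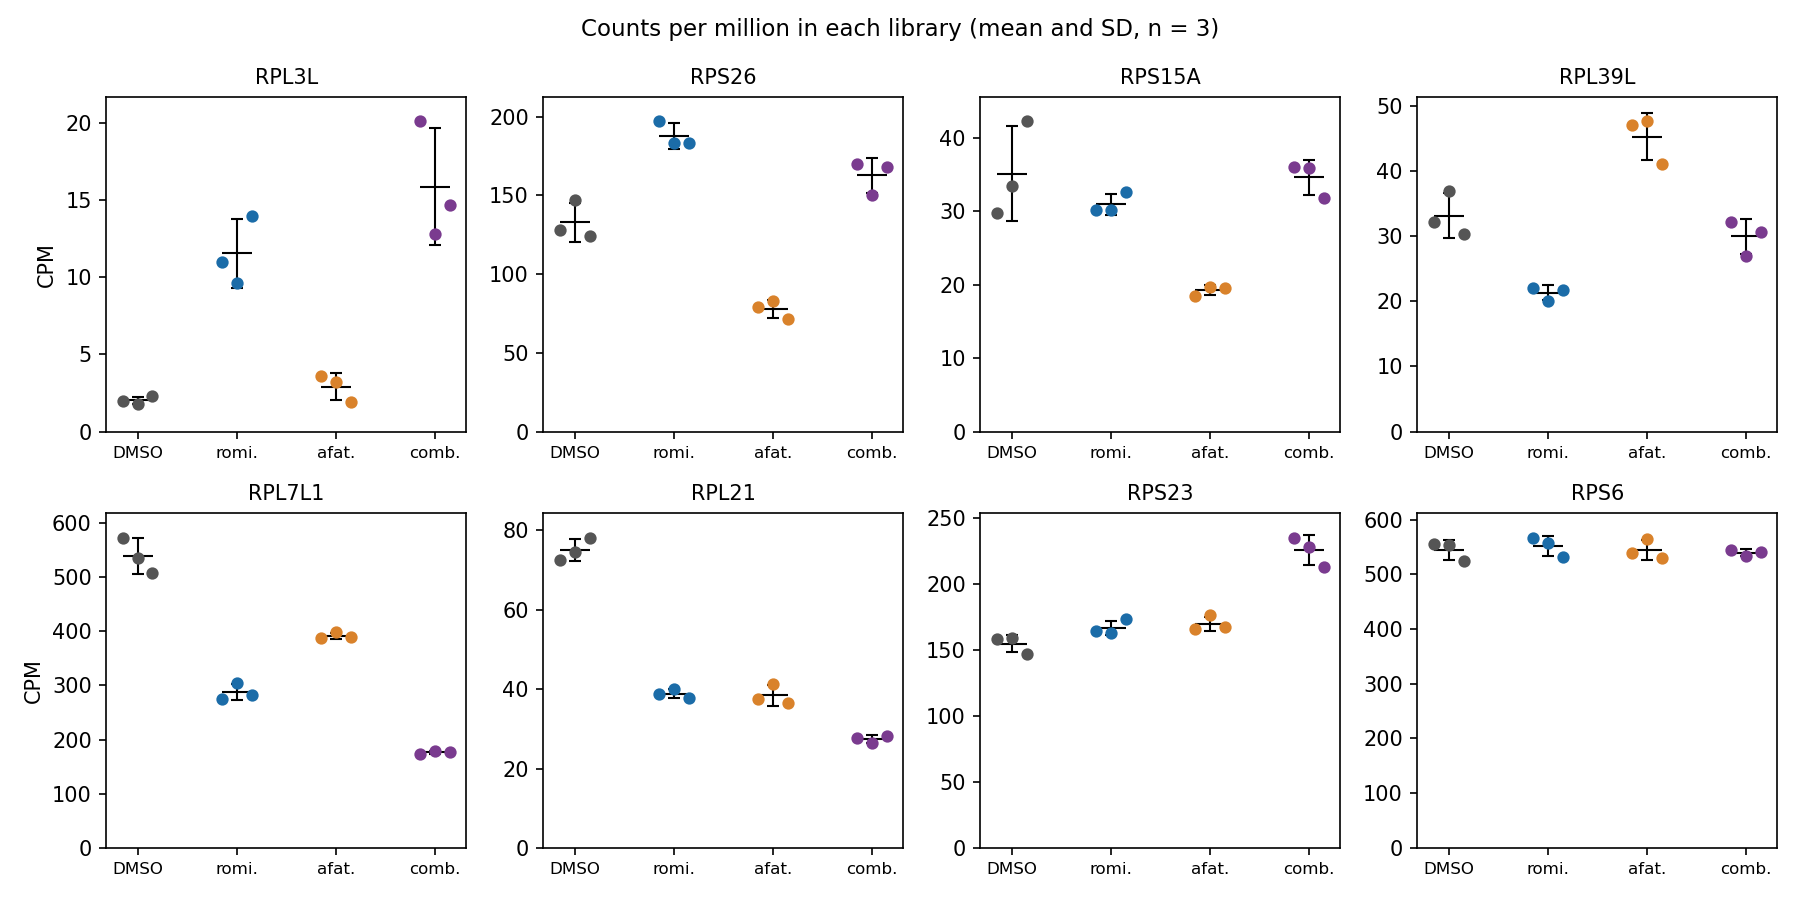
CPM of 8 members in each library (points), with group mean and SD (n = 3); romi., afat. and comb. stand for romidepsin, afatinib and combination, and vertical axes start at 0. RPS26 is above DMSO after romidepsin and below it after afatinib, RPS15A is low after afatinib only, RPL7L1 and RPL21 are lowest with both drugs, and RPS6 lies between 524 and 567 CPM.

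Of 7 paralogues 6 were tested. After the combination 1 was higher and 3 lower, 16.7% and 50%, against 37.2% and 37.1% of all tested genes. RPL3L, which replaces RPL3 in heart and skeletal muscle, had the largest change of any member. It lies at chr16:1943974-1957606 on the minus strand, shares no exon bases with another gene, and no row is named as its pseudogene. It had 2.00, 1.82 and 2.28 CPM after DMSO, 11, 9.62 and 14 after romidepsin, 3.59, 3.22 and 1.93 after afatinib, and 20.1, 12.8 and 14.7 after the combination. Every library with romidepsin was above every library without it. RPL3L was 5.69-fold higher after romidepsin (log2 2.51 ± 0.22, adjusted p = 8.07e-14) and 7.70-fold after the combination (2.95 ± 0.22, 4.43e-17), and its afatinib value was 0.49 ± 0.28 (0.15). The combination exceeded romidepsin by 0.44 ± 0.16 (adjusted p = 0.0222), a call lost without combination 1 (0.24), romidepsin 1 (0.39) or romidepsin 2 (0.32), under DESeq2 (0.47) and without the libraries with keratin reads (0.26). RPL3 itself had 428 to 531 CPM in all libraries and was not called against DMSO in any group.

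RPL39L, a paralogue of RPL39 known from testis, moved in the opposite sense to RPS26. It had 32.2, 36.9 and 30.3 CPM after DMSO, 22.1, 20.0 and 21.8 after romidepsin, 47.1, 47.6 and 41.1 after afatinib, and 32.2, 27.0 and 30.7 after both. It was the only member called higher after afatinib, at 0.45 ± 0.09 (adjusted p = 7.69e-05), and was lower after romidepsin, at -0.63 ± 0.10 (4.89e-07). With both drugs it lay between the single drugs, in the range of DMSO (-0.14 ± 0.10, adjusted p = 0.177). RPL39 was not called in any of the 6 comparisons, with 11 to 15 CPM.

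RPL7L1, a relative of RPL7 that works in the nucleolus on large-subunit precursors, fell with each drug and most with both. It had 573, 535 and 507 CPM after DMSO, 275, 304 and 283 after romidepsin, 387, 398 and 390 after afatinib and 174, 179 and 177 after the combination, with no overlap between any 2 groups. Its log2 fold changes were -0.91 ± 0.05 (8.94e-20), -0.46 ± 0.05 (8.92e-10) and -1.61 ± 0.06 (1.45e-29). RPL7 moved far less, at 0.14 ± 0.05, -0.26 ± 0.05 and -0.18 ± 0.05. RPL22 and its stand-in RPL22L1 were lower together after romidepsin, at -0.62 ± 0.07 and -0.35 ± 0.08, and after the combination, at -0.67 ± 0.07 and -0.42 ± 0.08; the calls of RPL22L1 were lost without the libraries with keratin reads (-0.13 in both). RPS27L, a p53 target related to RPS27, had 7.57 to 11.3 CPM and was not called in any comparison. RPL26L1, at 4.97 to 8.17 CPM, was called lower after afatinib and the combination, and both calls were lost under several alternatives.

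The interaction asks whether the 2 drugs together gave more or less than the product of their single fold changes. It was positive for 27 members and negative for 1, with a median of 0.09, where 11.7% of tested genes were positive and 18.5% negative, 30.2% in all, and their median was -0.058. For the members with a positive interaction the combination level was above the product of the 2 changes. By subunit 20 of 50 large and 7 of 31 small genes were positive. RPS15A was the largest, at 1.02 ± 0.15 (adjusted p = 2.91e-07), followed by RPL17 at 0.91 ± 0.15 (5.11e-06), RPL36A at 0.74 ± 0.20 (0.00341) and RPL26 at 0.60 ± 0.10 (7.56e-06). For RPL17, RPL26, RPL36A and RPL21 both single drugs were lower than DMSO and the combination fell short of the sum of the 2 log2 changes. RPL7L1 was the negative one, at -0.24 ± 0.08 (adjusted p = 0.0147). This count fell without the libraries with keratin reads, where 8 libraries were fitted: then 9 members were positive and 6 negative, the median was -0.01, and of all genes then tested 7.34% were positive. RPS15A (1.26), RPL36A (1.01), RPL17 (0.97) and RPL26 (0.64) were among the 9 that remained.

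The log2 fold change, taken with its sign, was related to the level of the gene. Across the 81 tested members, Spearman's rho between the mean CPM per kilobase of spliced transcript and the log2 fold change was 0.45 after romidepsin (Pearson's r 0.24), 0.26 after afatinib (0.23) and 0.26 after the combination (0.12), and -0.48 with the interaction (-0.43). The spliced length is that of 1 annotated transcript, which can be long. For RPL37 it is 7686 bases, so its 346 CPM became 45.1 per kilobase. With CPM not divided by length, rho was 0.48, 0.35 and 0.29, and -0.56 with the interaction. These correlations are descriptions over genes measured in the same libraries and not replicates. In the 27 members with the fewest counts the median romidepsin change was -0.34, in the middle 27 it was -0.17 and in the 27 with the most counts -0.01. Positive interactions numbered 14, 10 and 3 in these groups of members. Structure went with level too: the per-length level and the median intron length of the member had a rho of -0.63 (r -0.17). The 27 members with the shortest introns, 121 to 415 bases, had a median of 439 CPM, and the 27 with the longest, 770 to 17884 bases, had 73.8 CPM. RPL39L had the longest.

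**Figure D4:**
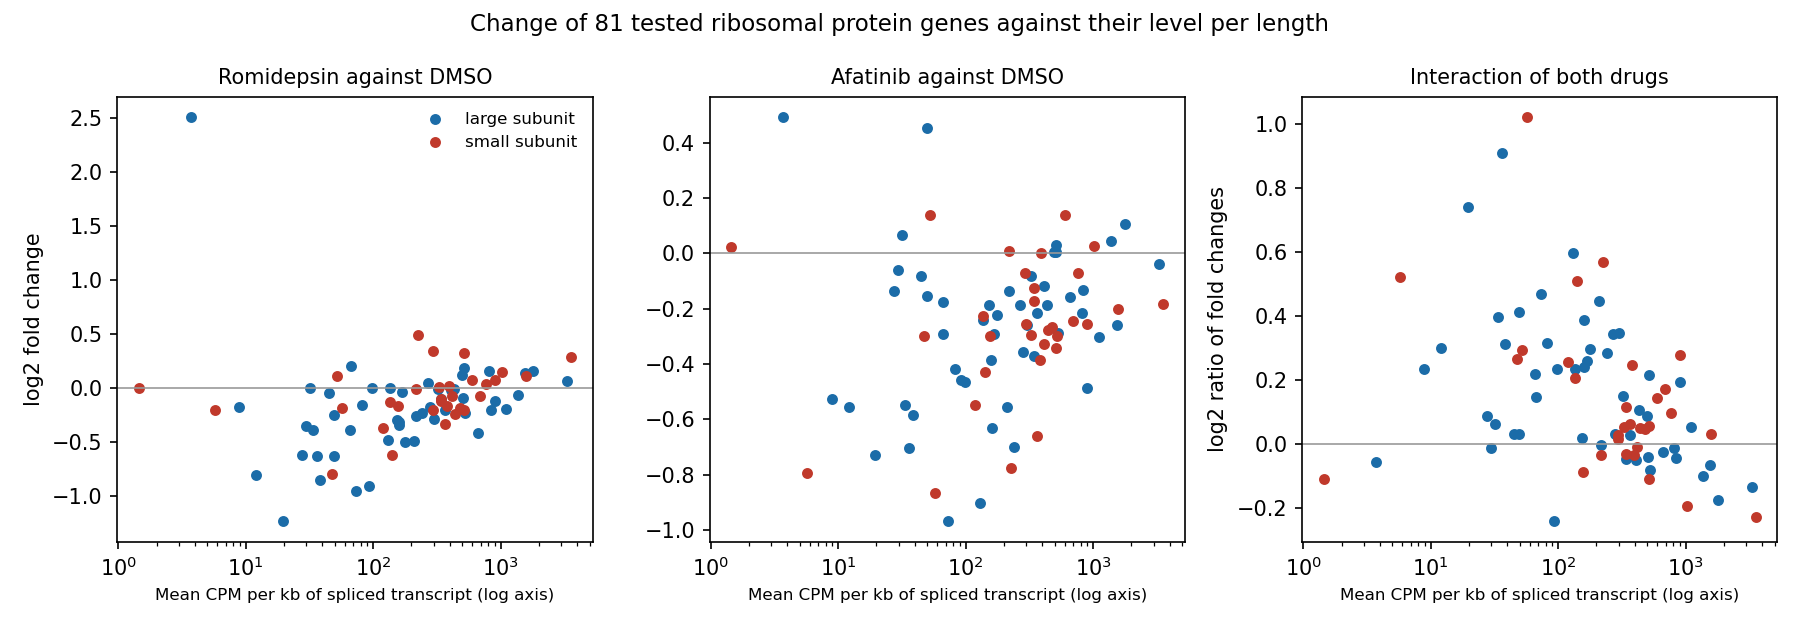
Each point is 1 of 81 tested members, with mean CPM per kilobase of spliced transcript on a log horizontal axis and log2 fold change (left, middle) or the log2 ratio of fold changes for the interaction (right) on the vertical axis. Romidepsin changes are lower at the left of the plot (rho 0.45), interaction values higher there (rho -0.48), and RPL3L is the high point in the left panel.

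Members with and without a pyrimidine run at the start had similar shares of lower calls, and the difference was not tested. After afatinib 30 of 44 tested members with a run were lower, and 13 of 21 tested members whose RefSeq promoter has none that covers the start. Some of these 21, such as RPS26 and RPL10A, have a run just after the annotated start. The 21 are therefore not a group without pyrimidine runs, and the similar shares do not bear on members that lack one. After the combination these numbers were 27 of 44 and 14 of 21, with medians of -0.30 and -0.34, and after romidepsin 20 of 44 and 10 of 21, with medians of -0.13 and -0.17. Of all tested genes 23.3% were lower after afatinib, 37.1% after the combination and 31.5% after romidepsin. RPS6, RPS23 and RPL28 have runs like those of RPL21 and RPL26 in the printed stretches and did not fall.

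Overlap of genes bears on the counts, since reads over bases shared by 2 genes were left out. Exon bases of 48 members overlap another gene, such as a small nucleolar RNA, a neighbour or a read-through transcript, and 35 members have none. Of 34 tested members without overlap 8 were higher and 13 lower after romidepsin, 1 and 18 after afatinib, and 6 and 17 after the combination. The shares lower were 38.2%, 52.9% and 50%, against 31.5%, 23.3% and 37.1% of all tested genes and 45.7%, 66.7% and 60.5% of all members. The shares higher were 23.5%, 2.94% and 17.6%, against 31.1%, 22.0% and 37.2% of all tested genes. The medians were -0.03, -0.19 and -0.14, nearer to 0 than over all members. In the interaction 6 of the 34 were positive and 1 negative. These are 17.6% and 2.94%, against 11.7% and 18.5% of all tested genes.

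Members mutated in Diamond-Blackfan anaemia, an inherited failure of red cell production, formed a list of 19 genes with 18 tested, which shares its genes with the counts above. After afatinib 15 were lower, median -0.33, after romidepsin 6 were lower and 2 higher, and after the combination 10 were lower and 3 higher. That is 83.3%, 33.3% and 55.6% lower, against 23.3%, 31.5% and 37.1% of all tested genes and 66.7%, 45.7% and 60.5% of all members, so the romidepsin share was near that of all genes. In the interaction 8 were positive, 44.4% against 11.7% of all tested genes and 33.3% of all members.

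A few ribosomal protein genes have other names. FAU encodes a fusion with a ubiquitin-like protein, RPL36AL is a paralogue of RPL36A, and RACK1 is a scaffold on the small-subunit head. RPL36AL was not called after romidepsin, where RPL36A was lower: its mean was 127 CPM after DMSO and 130 after romidepsin, 82.5 after afatinib and 64.5 after the combination, log2 -0.98 ± 0.07 (adjusted p = 1.98e-17).

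Genes that serve the cytosolic ribosome are shown for comparison with the members. Of 75 tested mitochondrial ribosomal protein genes, whose products build the separate ribosome of that organelle, 42 were lower after romidepsin, 45 after afatinib and 58 after the combination, with medians of -0.39, -0.31 and -0.87. That is 56%, 60% and 77.3% lower, against 31.5%, 23.3% and 37.1% of all tested genes. The mitochondrial ribosomal protein genes took 0.368% to 0.403% of counts after DMSO and 0.239% to 0.248% after the combination. The median of the cytosolic members, -0.26, was thus nearer to 0 after the combination. Chaperones and assembly factors that handle single ribosomal proteins were lower for 6 of 6 tested genes after the combination, with a median of -1.08. Of all tested genes 37.1% were lower there. GRWD1, which escorts RPL3, fell from 184 to 56.9 CPM, log2 -1.69 ± 0.07 (adjusted p = 9.99e-28), and LTV1, a factor of small-subunit export, from 27.2 to 5.40 CPM, -2.34 ± 0.14 (6.11e-20).

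Other mRNAs of the TOP class, which encode translation factors and a few further proteins, were split. Of 16 tested, 6 were higher and 5 lower after romidepsin (37.5% and 31.2%), near the 31.1% and 31.5% of all tested genes. After afatinib 3 were higher and 5 lower (18.8% and 31.2%), against 22.0% and 23.3%. After the combination 5 were higher and 9 lower (31.2% and 56.2%), against 37.2% and 37.1%. EIF4B, an initiation factor, fell most after the combination, from 637 to 237 CPM (-1.43 ± 0.05, adjusted p = 4.90e-28), and VIM, vimentin, was higher after romidepsin at 0.75 ± 0.05 (9.57e-18). Noncoding hosts of small nucleolar RNAs are a gene class that often shares the pyrimidine start. Of 12 such hosts 1 was higher and 8 lower after romidepsin (8.33% and 66.7%), against 31.1% and 31.5% of all tested genes. After afatinib 4 were higher and 5 lower (33.3% and 41.7%), against 22.0% and 23.3%. After the combination 6 were higher and 4 lower (50% and 33.3%), against 37.2% and 37.1%. SNHG1 rose from 135 to 356 CPM after the combination, log2 1.40 ± 0.06 (9.46e-26). In the mTOR pathway with LARP1, 10 of 20 tested genes were higher and 7 lower after the combination. These are 50% and 35%, against 37.2% and 37.1% of all tested genes. DDIT4, an inhibitor of mTOR signalling, was higher after romidepsin at 3.10 ± 0.08 (2.67e-31), SESN2, an amino acid sensor that restrains mTOR, was higher after afatinib at 3.62 ± 0.16 (9.78e-24), and LARP1 had 875, 488, 997 and 327 CPM in the order DMSO, romidepsin, afatinib and combination. Of 9 factors that bind ribosomal protein promoters 7 were lower after romidepsin, 5 after afatinib and 7 after the combination, against 31.5%, 23.3% and 37.1% of all tested genes; GABPA was lower after the combination at -1.17 ± 0.09 (1.45e-15), and MYC had 623, 970, 503 and 705 CPM in the same order. Of 12 genes of ribosome quality control and hibernation 8 were lower and 2 higher after the combination. These are 66.7% and 16.7%, against 37.1% and 37.2% of all tested genes. IFRD2, which occupies idle ribosomes, was at -2.40 ± 0.08 (1.79e-31).

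Ribosomal protein pseudogenes, where reads of the members can come to rest, took 0.301% to 0.378% of counts. Of 172 tested pseudogenes 39 were lower and 3 higher after afatinib, median -0.22, and 44 lower and 12 higher after the combination, median -0.25. After afatinib that is 22.7% lower and 1.74% higher, against 23.3% and 22.0% of all tested genes. After the combination it is 25.6% lower and 6.98% higher, against 37.1% and 37.2%. The shares lower were thus not above those of all tested genes. The medians of -0.22 and -0.25 are close to those of the members. The rows have few counts and may hold reads of the members themselves.

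**Figure D5:**
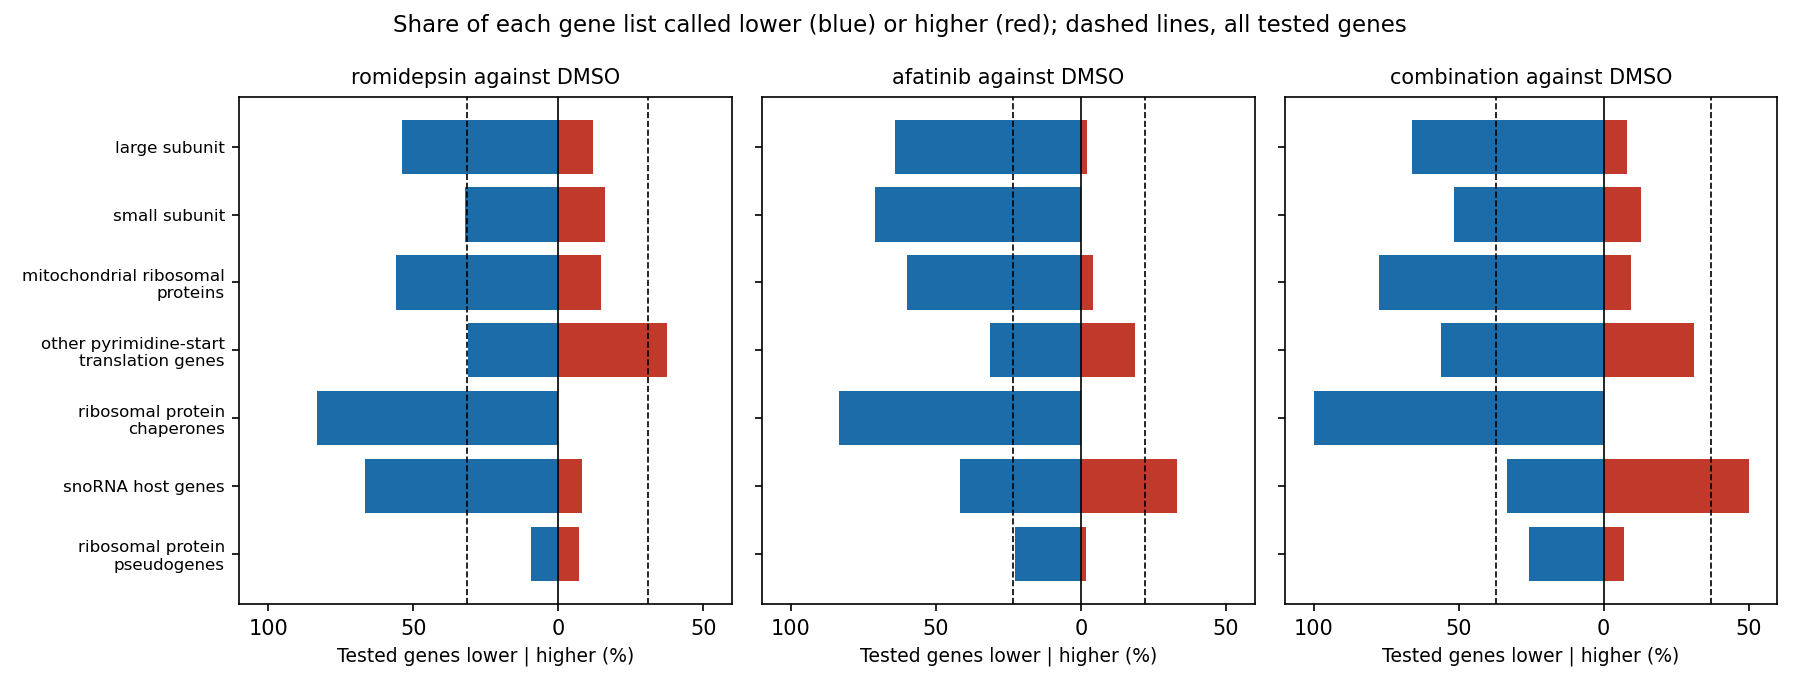
Bars give the share (%) of tested genes of each list called lower (left, blue) or higher (right, red) in 3 comparisons with DMSO, and dashed lines the shares over all tested genes. After afatinib 64.0% of large and 71.0% of small subunit genes were lower against 23.3% of all, and after the combination 77.3% of mitochondrial ribosomal protein genes were.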

How the data were processed

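MYLA cells were measured by RNA sequencing in 12 libraries, 3 per group. Raw counts per gene were deposited by the authors; per the file headers they come from featureCounts with GENCODE 31 genes, paired fragments and a check of fragment length, without strand and without multiply mapped or ambiguous reads. The submitters' processing notes name STAR 2.7.9a, featureCounts 2.0.0, DESeq2 1.38.1 and GRCh38.p12. Short spliced transcripts can lose fragments to a length check, and the size of this was not tested. A second deposited table was not used here.

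Counts were fitted in R 4.3.3 with edgeR 4.0.16 (filterByExpr, TMM, robust quasi-likelihood, 4 group means) on the whole table, with Benjamini-Hochberg adjustment over 16208 genes, threshold 0.05, two-sided. Spread between libraries of a group was 6.13% (biological coefficient of variation). TPM used the lengths of the table. Intron and exon lengths came from GENCODE 29, promoters from RefSeq GRCh38.p14. All libraries differed by more than sampling noise (chi-square per degree of freedom 2.05 to 8.28). In data simulated like romidepsin against DMSO with 15564 genes, 34% of genes changed 1.25-fold, 58% at 1.5-fold and 92% at 2-fold were recovered.

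The members and all lists were chosen with earlier results of these data known. Genes were named by rule: up to 4 members higher and 4 lower per comparison with DMSO and the interaction, and 3 and 3 for the combination against each drug, with the largest called changes at 5 CPM or more; a fixed set of stalk, 5S and paralogue genes; the 3 highest and lowest by length; and 2 per other list and comparison. RPL12, RPL4, RPL35 and RPS13 were added after their values were seen, and FAU and RACK1 are named only for their identity. A few genes enter the fits and counts, but their own values are not reported here. Alternatives were other scalings, filters, DESeq2 1.42.0, the compared groups only, a replicate block, each library left out, and the 4 libraries with keratin reads left out.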

Additional observations from a re-analysis of the deposited data

Results flagged for a closer look

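For 28 members the interaction of the 2 drugs passed the threshold (edgeR adjusted p below 0.05), which means that the effect of one drug differed with and without the other. The log2 interaction was positive for RPS15A (1.02), RPL17 (0.91), RPL36A (0.74), RPL26 (0.60), RPS26 (0.57), RPS13 (0.51), RPL21 (0.47), RPL31 (0.41), RPL37A (0.40), RPL27 (0.39), RPL36 (0.35), RPL18 (0.34), RPL11 (0.32) and RPL23A (0.31). It was 0.30 for RPS23, RPL12 and RPL27A. Values below this were 0.29 for RPL23, 0.28 for RPS20, 0.26 for RPS14 and RPL38, 0.25 for RPS25, 0.24 for RPL9, 0.23 for RPL5, 0.22 for RPL28 and 0.19 for RPL13A. For RPL7L1 it was -0.24. Without the 4 libraries with keratin reads 9 of the 27 positive values remained past the threshold, and that of RPL7L1 also.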

How the results depend on the processing

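The members' medians kept their sign against DMSO in the alternatives run, and 2390 of 2564 values of the named genes' calls stayed on their side of the threshold; 172 lost a call and 2 reversed a called value. Leaving out the 4 libraries with keratin reads gave 17 higher and 20 lower members after romidepsin, 3 and 21 after afatinib, and 9 and 6 in the interaction; RPL10 after the combination (0.03) and RPSA after afatinib (0.00) reversed. With library size alone there were 4 members higher after afatinib, 14 higher and 21 lower for the combination against romidepsin, and 2 with a negative interaction. Library size without mitochondrially encoded genes gave 4, 11 and 25, and 2. Upper quartile scaling gave 3 higher after afatinib, 14 higher after the combination, 14 and 20 against romidepsin, 32 and 16 against afatinib, no negative interaction (1 at an unadjusted p below 0.05), and RPS6 at 0.11 after the combination. DESeq2 size factors and no filter also left no negative interaction (1 and 2 unadjusted), where DESeq2 itself called 1. Without a filter 6 members were higher after romidepsin. Afatinib had 3 higher with 1 CPM in 3 libraries or only the compared groups. Leaving out 1 library gave 7 to 14 members higher after romidepsin, 1 to 3 after afatinib, and 0 to 5 with a negative interaction (0 without afatinib 3, with 4 unadjusted).

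The share of counts in the order DMSO, romidepsin, afatinib and combination was 3.55%, 3.59%, 3.30% and 3.34% without mitochondrially encoded genes, and 1.22%, 1.24%, 1.17% and 1.18% for members without exon overlap; by TPM afatinib had 3.18%. The log2 ratio of large to small was 1.00, 0.91, 1.05 and 0.91 without overlap and 0.37, 0.21, 0.39 and 0.26 by TPM. With ribosomal protein genes of other names added it was 0.62 after romidepsin and 0.68 after the combination.

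Same-numbered libraries did not deviate together (18 correlations, -0.09 to 0.089), so the numbers do not pair them. With the replicate block 38 members were lower after romidepsin, 54 after afatinib and 48 after the combination. At 3 libraries a group, changes under 1.5-fold are often missed.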
